A study of Homo sapiens with 12 samples.

Results

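The effect of valproic acid (VPA) on HepG2 cells in low glucose was measured as 3 libraries with VPA (LGV) against 3 without (LG). HepG2, a human line established from a liver tumour, still makes many of the plasma proteins of hepatocytes. All 6 cultures were kept in medium with 5.5 mM glucose for 48 h, and the LGV cultures then received 1 mM VPA for 12 h. Whether the untreated cultures were harvested before or after these 12 h is not stated in the sources used here, so time in culture and VPA cannot be told apart if they differed. The series also holds 3 HG and 3 HGV libraries, grown in 20 mM glucose without and with the same VPA treatment, which are used here where the response in low glucose is set beside that in high glucose. A gene was a member of the comparison if its mean count over the 6 LG and LGV libraries was at least 10, which held for 15944 of the 16389 genes counted. All 6 libraries came from the same cell line, and nothing in the labels says that replicates were separate cultures, so p-values measure the spread between these libraries.

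VPA is a branched short-chain fatty acid used against epilepsy and bipolar disorder. It inhibits the zinc-dependent histone deacetylases of classes I and IIa, the enzymes that remove acetyl groups from lysines of histone tails, and acetylated histones are found at active promoters and enhancers. In cultured cells, inhibitors of these enzymes are known for switching on genes of other tissues, for slowing the cell cycle and for lowering some highly expressed genes. In liver VPA is also a substrate and a disturber of mitochondrial fatty acid oxidation, and it is known for steatosis and for raised ammonia in patients.

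Between 29816124 and 45572694 reads per LG library and between 30455877 and 36709673 per LGV library were counted on genes. Levels are given as CPM, a gene's reads in proportion to all reads counted in its library, with library totals scaled by TMM factors. These factors were 0.914 to 0.987 in LG and 0.998 to 1.123 in LGV. The floor of detection was set at 3 reads, equal to 0.072 to 0.107 CPM in the LG libraries, and covers counting error only. Over the 500 genes most different in a pair of libraries, the root mean square of the log2 differences was 0.78 to 1.32 within groups and 2.81 to 3.03 between LG and LGV. LG replicates 2 and 3 were the most distant pair within a group. LG replicate 1 was lowest in the summed level of 25 mitosis genes, with 639 CPM against 918 and 951 CPM in LG replicates 2 and 3. The 10 liver markers examined were all present, with a summed level of 59469 to 64920 CPM in LG and 45173 to 46763 CPM in LGV. In bulk RNA, fewer cells of a type and less RNA per cell cannot be told apart. Of markers of other cell types, 1 of 5 endothelial markers was tested (VWF, at 1.96 to 2.83 CPM in LG), and the leukocyte markers PTPRC and CD3E did not pass the filter. Of the 5 immune markers LYZ and CD14 were tested, with a sum of 1022 to 1387 CPM in LG and 887 to 1029 CPM in LGV that was nearly all LYZ. By edgeR neither was called (LYZ log2 fold change -0.34, FDR 0.0652, and CD14 -0.82, FDR 0.0722), both had an unadjusted p under 0.05, and DESeq2 called 1 of them lower. Of 6 neuronal markers TUBB3 and RBFOX3 were tested, with a sum of 2.93 to 3.4 CPM in LG and 2.62 to 3.54 CPM in LGV, while SNAP25, SYT1, ELAVL3 and ELAVL4 did not pass the filter. Of 6 fibroblast markers, PDGFRB was lower (log2 fold change -0.47, with the call lost without LG replicate 1, LG replicate 3, LGV replicate 2 or LGV replicate 3) and COL1A1 higher (2.36, at 0.12 to 0.358 CPM in LG), with a sum of 36.4 to 55.7 CPM in LG and 31.3 to 39.5 CPM in LGV. Of 3 biliary markers KRT19 was higher (0.70) and SOX9 was not called, with a sum of 301 to 348 CPM in LG and 340 to 405 CPM in LGV. The part of these markers in the results was not tested.

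VPA changed many genes in both directions, but the large changes were mostly rises from low levels. With edgeR's quasi-likelihood F test, 6638 of 15944 genes (41.6%) passed an FDR of 0.05. Of the genes tested, 3461 were higher in LGV (21.7%) and 3177 were lower (19.9%). The values of the LG and LGV libraries did not overlap for 8037 genes (50.4%). Rises and falls differed in size. A change of at least 1 on the log2 scale was found for 1798 of the genes called higher and 783 of those called lower, a change of at least 2 for 889 and 56, and a change of at least 4 for 223 and 0. The median log2 fold change was 1.05 among the genes called higher, -0.69 among those called lower and -0.006 over all genes tested. The balance of directions depended on scaling. With library size alone in place of TMM factors the median of all genes moved up by 0.16, and 69.7% of the calls were higher in place of 52.1%.

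**Figure D1:**
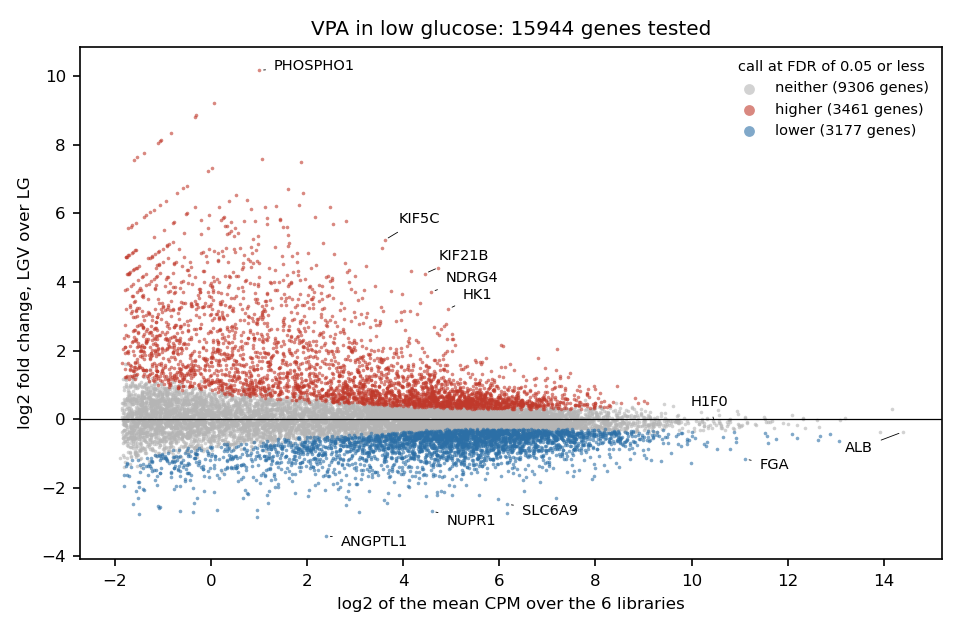
Log2 fold change of each of the 15944 genes tested (LGV over LG) against the log2 of its mean CPM over the 6 libraries, with genes called higher in red, lower in blue and neither in grey. There are 223 rises of at least 4, while the falls end at -3.40 for ANGPTL1. The position of PHOSPHO1 and other genes near 0 in LG depends on the prior count of the fit.

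The share of genes called higher fell with the level before treatment and the share called lower rose with it. The genes were put into 5 equal groups by their mean CPM in LG. The genes least expressed in LG (median 0.442 CPM) were called higher in 35.8% of cases and lower in 3.14%. For the most expressed genes (median 124 CPM) these shares were 7.9% and 36.4%, and the groups between lay in order. With library size alone they were 37.7% and 1.47% for the lowest group and 17.8% and 25.7% for the highest, and the shares of rises in the 3 groups between lay from 28% to 29.4%. The level in LG takes part in the fold change, so the groups were also made from the HG libraries, which it does not use. Grouped in that way, rises and falls made up 35.8% and 3.2% of the lowest group and 7.43% and 38.5% of the highest. The filter lets in some genes of very low level in LG through their level in LGV. Among genes with a mean of 10 reads in LG alone, 22.2% of the lowest group were higher and 4.72% lower, and here the second group had the largest share of rises, 24.9%. In the first grouping, by mean CPM in LG, the median log2 fold changes were 0.50, 0.08, 0.01, -0.08 and -0.19 from lowest to highest. The power to call a fall is smaller at few reads, and its part in the shares was not tested.

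**Figure D2:**
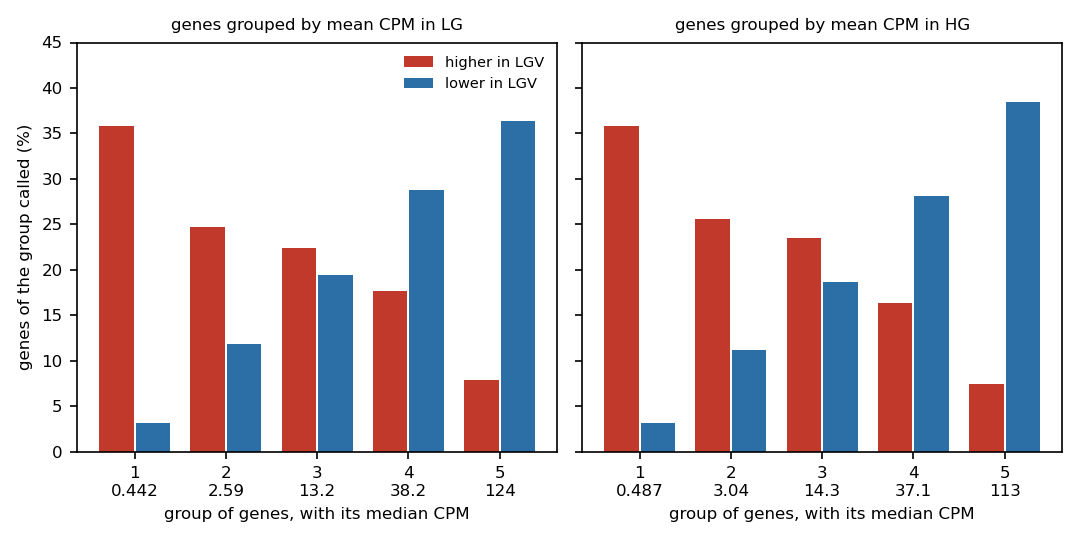
Percent of genes called higher (red) and lower (blue) in LGV in 5 equal groups of genes by mean CPM in LG (left) or in HG (right), with the median CPM of each group under its number. In the left panel the share called higher goes from 35.8% to 7.9% and the share called lower from 3.14% to 36.4%.

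Gene length and gene type differed between the directions as well. Among protein-coding genes the median span from start to end was 42.1 kb for genes called higher, 26.1 kb for genes called lower and 32.1 kb for the others. Within each of the 5 groups by level, the genes called higher had a longer median span than those called lower, such as 55.9 kb against 27.1 kb in the highest group. Of the 12948 protein-coding genes tested, 24.7% were higher and 21.7% lower. Among 1601 long non-coding RNA genes, which make no protein and are often transcribed at low levels, 8.81% were higher and 14.6% lower, both under the shares of all genes. In the lowest group by level, which held 833 of them, 9.96% were higher and 5.76% lower, the reverse of the pooled order. Protein-coding genes of that group were higher in 60.9% of cases and lower in 1.7%. In each group but the highest, a larger share of long non-coding RNA genes was lower than of protein-coding genes. This share was 21% against 9.65% in group 2 and 35.9% against 18.7% in group 3. Groups 4 and 5 held only 21 and 23 long non-coding RNA genes. A comparison of promoter letters was void, because 78.3% of the protein-coding genes called higher had a promoter in the RefSeq table, under the 80% required.

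The rise with the smallest p was that of KIF21B, which encodes a kinesin, a motor protein that moves along microtubules. KIF21B (ENSG00000116852) lies on chromosome 1 of GRCh37 from 200938518 to 200992842. It had 2.36, 1.94 and 2.26 CPM in LG and 40.5, 39 and 44.6 CPM in LGV. The LGV libraries were far above the LG libraries and close to each other. The log2 fold change was 4.24 (standard error 0.157, FDR 1.54e-09). NDRG4, a gene best known from brain and heart, had 3.54, 2.95 and 3.68 CPM in LG and 50.6, 40.4 and 42.4 CPM in LGV, which is a rise of 3.71 on the log2 scale (FDR 2.11e-09). HK1, the hexokinase of brain and red cells that phosphorylates glucose, had 5.79, 6.39 and 5.69 CPM in LG and 46.5, 61.2 and 58.3 CPM in LGV, which is a rise of 3.21 (FDR 4.06e-09). For these 3 genes the groups did not overlap.

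Among the largest rises of genes with some reads in LG and a mean of at least 1 log2 CPM were those of BAI2, CECR2, GNG12, LRP2, GABBR1, NFATC4, SEPT3, ELOVL4, LMX1B, SIPA1L2 and DACT3. Their log2 fold changes ran from 5.59 for DACT3 to 6.70 for BAI2. LRP2 encodes megalin, an endocytic receptor of absorptive epithelia. It had 0.215, 0.096 and 0.149 CPM in LG and 12.1, 10.1 and 10.5 CPM in LGV. ELOVL4, an elongase of very long fatty acids in retina and skin, had 0.25, 0.216 and 0.273 CPM in LG and 13.2, 15.8 and 12.5 CPM in LGV. LMX1B, a transcription factor of limb, kidney and midbrain development, went from 0.25, 0.192 and 0.224 CPM to 11.4, 10.3 and 12.4 CPM. Each of these genes passed the test under each of the alternatives run. The exons of GABBR1 overlap those of UBD and the exons of CECR2 those of a clone-named gene on the same strand, which the counts may not tell apart.

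A further 123 tested genes had no more than 3 reads in each LG library. They could pass the filter only through LGV, so that all 123 were called higher is fixed by the filter and is no finding. Of these, 7 carry clone names. The 6 with the highest level in LGV were DPYSL5, MFSD2A, TBXA2R, TMEM63C, CHST11 and PHOSPHO1. DPYSL5, of a family that guides axon growth, had 8.95, 5.9 and 6.87 CPM in LGV, at least 67.5-fold higher than the LG floor, the 3-read level of the shallowest LG library. MFSD2A, a carrier of lysolipids at the blood-brain barrier, had 5.18, 4.73 and 5.09 CPM in LGV and was at least 46.6-fold higher. PHOSPHO1, a phosphatase of bone mineralization, had 0 reads in the 3 LG libraries and 4.59, 3.22 and 4.24 CPM in LGV, at least 37.4-fold higher. TBXA2R, TMEM63C and CHST11 were at least 41.2-fold, 39.8-fold and 38.8-fold higher. Exons of TMEM63C overlap those of CIPC on the same strand.

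The falls were smaller. Those named as the largest had to have a mean of at least 1 log2 CPM, so their expression in LG is set by that rule. In the lowest group by level in LG, 100 of 3189 genes were called lower. ANGPTL1 (ENSG00000116194), a secreted relative of the angiopoietins, had the largest fall among all genes called lower. It had 7.15, 14.9 and 6.81 CPM in LG and 0.995, 0.6 and 1.11 CPM in LGV, so that the log2 fold change came to -3.40, with a standard error of 0.335 (FDR 2.05e-06). LG replicate 2 was the highest of the LG libraries, and without it the log2 fold change was -2.94. The fall with the smallest p was that of SLC6A9, a glycine transporter, which had 145, 109 and 111 CPM in LG and 23, 20.4 and 22.2 CPM in LGV (log2 fold change -2.48, FDR 1.83e-08). The other large falls were those of HP, PMF1, NUPR1, SERPINA3, SERPINA10, AGXT, TMPRSS3, DHRS3, BRPF3 and HPR, from -2.74 for HP to -2.26 for HPR. BRPF3, a scaffold of a histone acetyltransferase complex, had 260, 291 and 177 CPM in LG and 42.2, 54.5 and 49.9 CPM in LGV. DHRS3, a retinal reductase, had 118, 87.5 and 108 CPM in LG and 24.5, 19.8 and 18.4 CPM in LGV. For HP, HPR, SERPINA3, SERPINA10, AGXT and TMPRSS3, the highest LG value was that of LG replicate 3. HP and HPR are near-identical copies whose reads may be split, exons of PMF1 overlap those of the PMF1-BGLAP readthrough on the same strand, and exons of SLC6A9 overlap those of CCDC24 on the other strand. The library kit keeps the strand, but whether the counting used it is not stated. Among the genes named further on, this also concerns HDAC5 (G6PC3), H2AFY2 (AIFM2), CCND1 (LTO1), CFD (MED16), GGCX (MAT2A), CYP8B1 (ACKR2), SREBF1 (RAI1), GLUD1 (SHLD2), SHMT2 (NDUFA4L2), MTHFD2 (SLC4A5), DNAJB11 (TBCCD1), SLC30A3 (DNAJC5G), DNM1 (CIZ1) and MAML3 (MGST2), each with its neighbour on the other strand in parentheses.

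**Figure D3:**
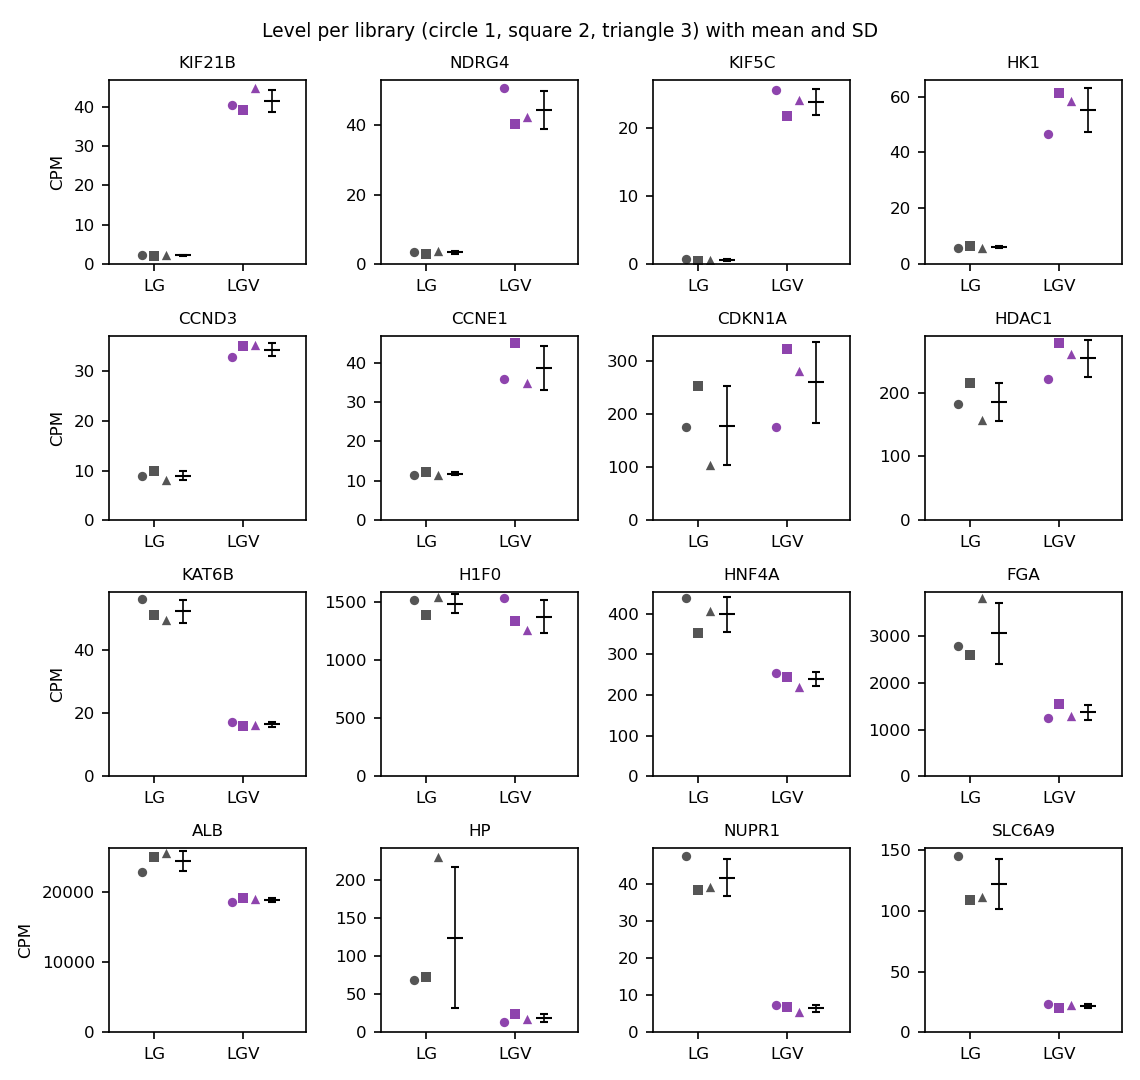
CPM of 16 genes in each library of LG (grey) and LGV (purple), with circles for replicate 1, squares for 2 and triangles for 3, and the mean and SD (n = 3) beside them. KIF21B goes from about 1.94 to 2.36 CPM in LG to 39 to 44.6 CPM in LGV, H1F0 and CDKN1A overlap between the groups, and HP in LG is spread by replicate 3 at 230 CPM.

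Of 11 zinc-dependent deacetylases, the family that holds the targets of the drug, 10 were tested, and 2 were higher and 2 lower, with a median log2 fold change of 0.12. These shares are near those of all genes (21.7% and 19.9%). HDAC1, a class I enzyme, had 183, 216 and 157 CPM in LG and 222, 278 and 261 CPM in LGV (log2 fold change 0.45, standard error 0.139, FDR 0.0178). HDAC3, the class I enzyme of the NCoR corepressor, had 61.8, 64.1 and 60.7 CPM in LG and 71.4, 88.1 and 80.9 CPM in LGV (log2 fold change 0.36, FDR 0.021). The groups did not overlap, but both calls rest on few libraries. The FDR of HDAC1 was 0.0696, 0.0753 and 0.0573 without LG replicate 1, LGV replicate 2 and LGV replicate 3, and that of HDAC3 was 0.0583, 0.112 and 0.0666. The class IIa enzymes HDAC5 and HDAC4 were lower, by log2 fold changes of -0.62 and -0.46. HDAC2 and HDAC8 had log2 fold changes of 0.11 (FDR 0.502) and 0.13 (FDR 0.554), and their groups overlapped.

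Among the acetyltransferases, which put the same marks on, falls outnumbered rises. All 11 were tested, with 6 lower and 2 higher (19.9% and 21.7% over all genes). Their median log2 fold change was -0.53 and stayed below 0 with RLE factors, upper quartile factors and library size alone. KAT6B, the acetyltransferase of the MOZ/MORF complex, had 56.2, 51 and 49.3 CPM in LG and 17.2, 15.8 and 16.3 CPM in LGV (log2 fold change -1.67, standard error 0.121, FDR 1.36e-07). KAT5, the enzyme of the TIP60 complex, had 22.1, 20.5 and 22.2 CPM in LG and 6.76, 8.36 and 7.77 CPM in LGV (log2 fold change -1.50, FDR 2.24e-06). KAT2A fell by 0.98 on the log2 scale, and its paralog KAT2B rose by 0.86 from 2.83, 4.11 and 2.41 CPM to 5.65, 5.49 and 5.91 CPM. With HAT1, which rose by 0.40, KAT2B was the other rise. KAT5 overlaps RNASEH2C on the other strand.

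Of 17 linker and variant histones 16 were tested, with 2 higher and 3 lower, near the shares of all genes, and 5 were lower without LG replicate 3. H1F0, the replacement linker histone that is often used as a readout of deacetylase inhibition, had 1514, 1388 and 1542 CPM in LG and 1527, 1334 and 1253 CPM in LGV. The groups overlapped, and the log2 fold change was -0.11 (standard error 0.131, FDR 0.536). The other linker histone H1FX rose by 0.80, from 80.4, 83.8 and 78.9 CPM to 120, 157 and 146 CPM (FDR 1.26e-04). H2AFJ rose by 0.69, while H2AFY2, a macroH2A, fell by 0.87 and H2AFX fell by 0.58.

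Among regulators of the step from G1 into S phase, rises outnumbered falls. Of 21 genes 20 were tested, with 11 higher and 2 lower and a median log2 fold change of 0.53. Over all genes 21.7% were higher and the median was -0.006. Cyclins and inhibitors of their kinases rose side by side. CCND3, a D-type cyclin, had 8.87, 9.87 and 8.07 CPM in LG and 32.9, 35.2 and 35.3 CPM in LGV (log2 fold change 1.95, FDR 1.02e-07). CCND2 rose by 1.99 and CCNE1 by 1.72. Among the inhibitors of CDK4 and CDK6, CDKN2D rose by 1.99, from 5.33, 5.31 and 3.55 CPM to 15.1, 19.8 and 21.2 CPM (FDR 2.45e-06). The 2 lower members were these kinases themselves, CDK4 with a log2 fold change of -0.76 and CDK6 with -0.39. CCND1 had a log2 fold change of 0.16 (FDR 0.343).

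CDKN1A, which encodes the kinase inhibitor p21 and is a classic target of deacetylase inhibitors, was spread widely between replicates. CDKN1A had 175, 254 and 105 CPM in LG and 176, 323 and 281 CPM in LGV. The groups overlapped, since LGV replicate 1 lay at the level of LG replicate 1, and the log2 fold change of 0.55 (standard error 0.259) had an FDR of 0.107. The call changed with library size alone (0.71, FDR 0.0393), while DESeq2 gave an FDR of 0.327. Without LG replicate 2 it was 0.89 (FDR 0.00525) and without LGV replicate 1 it was 0.78 (FDR 0.0223), while without LG replicate 3 it was 0.29 (FDR 0.257) and without LGV replicate 2 it was 0.36 (FDR 0.332). CDKN1A overlaps a non-coding RNA on the other strand. Its promoter is shown because it is known for GC boxes, sites of the SP1 family, and beside it that of SLC6A9, the fall with the smallest p. The 250 bases before the RefSeq start are given on the gene's strand, with each GGGCGG in capitals. Searched on both strands and allowing overlaps, GGGCGG occurred 4 times in the CDKN1A sequence and 0 times in that of SLC6A9, and 66.4% of 11169 promoter sequences of the same length held it. CCAAT and TATAAA, searched in the same way, were in neither.
CDKN1A (GRCh38.p14, chr6:36678464-36678713, plus strand): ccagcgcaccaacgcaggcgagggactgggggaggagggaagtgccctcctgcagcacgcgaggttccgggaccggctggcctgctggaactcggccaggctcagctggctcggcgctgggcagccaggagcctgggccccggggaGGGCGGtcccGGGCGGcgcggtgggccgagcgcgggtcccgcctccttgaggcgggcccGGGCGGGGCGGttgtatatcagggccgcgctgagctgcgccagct
SLC6A9 (GRCh38.p14, chr1:44031463-44031712, minus strand): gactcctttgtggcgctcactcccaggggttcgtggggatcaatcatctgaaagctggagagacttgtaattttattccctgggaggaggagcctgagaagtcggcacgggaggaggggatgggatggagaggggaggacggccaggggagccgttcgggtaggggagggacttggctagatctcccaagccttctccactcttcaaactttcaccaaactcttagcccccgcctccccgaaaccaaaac

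In lists of S phase and mitosis the falls came at shares near the 19.9% of all genes, and fewer rises were called than the 21.7% of all genes. Of 33 DNA replication genes, 7 were lower and 2 higher, with a median of -0.07 that turned to 0.09 with library size alone. TYMS, which makes thymidylate, had 27.1, 41.4 and 41.9 CPM in LG and 16.7, 18.2 and 16.9 CPM in LGV (log2 fold change -1.09, FDR 7.96e-05), and it overlaps ENOSF1 on the other strand. The helicase subunits MCM5 and MCM2 fell by 0.77 and 0.62. Without LG replicate 2, 11 replication genes were lower, and the 2 rises became 5 without LG replicate 3, 1 without LG replicate 1 or LGV replicate 1 and 0 without LGV replicate 3. With library size alone 4 were higher and 4 lower. Of 25 mitosis genes, 6 were lower and 1 higher (TPX2, log2 fold change 0.44), with a median of -0.29. CDC20, an activator of the anaphase-promoting complex, had 48.7, 63.7 and 56.6 CPM in LG and 31.6, 30.4 and 39.6 CPM in LGV (FDR 6.80e-04). The count of mitosis genes called lower moved with the libraries: it was 11 without LG replicate 1, the library with the least mitosis transcripts, 2 without LG replicate 3, 3 without LGV replicate 1 and 2 without LGV replicate 2. With library size alone it was 2.

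Most plasma proteins made by liver cells that passed the test fell. Over all genes 19.9% were lower, and 36.4% in the most expressed of the 5 groups by level in LG. How far level enters the counts of the liver lists was not tested. Of 17 acute phase genes 12 were tested, with 10 lower and a median log2 fold change of -1.16. In the higher direction edgeR and DESeq2 called 0, also at an unadjusted p under 0.05. HP, haptoglobin, the scavenger of free hemoglobin, had 68, 72.6 and 230 CPM in LG and 13.4, 24.2 and 17.9 CPM in LGV (log2 fold change -2.74, standard error 0.381, FDR 4.69e-05). LG replicate 3 was far above the other LG libraries, and without it the log2 fold change was -1.92. That the other LG libraries lay above all LGV libraries was required by the rule for the largest falls. ORM1, orosomucoid, had 361, 395 and 315 CPM in LG and 119, 167 and 145 CPM in LGV, and its near-identical copy ORM2 moved from 195, 216 and 196 CPM to 61.4, 89.8 and 76.1 CPM. LCN2 had a log2 fold change of 0.13 and HAMP of -1.53, and neither passed.

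Of 21 plasma carriers and apolipoproteins 20 were tested, and 13 were lower (19.9% over all genes). The edgeR test called 0 higher, also at an unadjusted p under 0.05, as did DESeq2, and the median was -0.54. Their summed level was 68617 to 73124 CPM in LG and 50488 to 53578 CPM in LGV. APOA5, an activator of lipoprotein lipase, had 33.8, 19.6 and 35.7 CPM in LG and 11.9, 9.34 and 9.35 CPM in LGV (log2 fold change -1.54, FDR 3.10e-05). APOC3, an inhibitor of the same lipase, fell by 1.04 and APOA2, of high-density lipoprotein, by 0.99. ALB, albumin, had 22818, 24879 and 25464 CPM in LG and 18481, 19045 and 18969 CPM in LGV. The groups did not overlap, but the log2 fold change of -0.37 (standard error 0.149) had an FDR of 0.0581. Other tests passed it, with an FDR of 0.00761 by the likelihood ratio test, 0.00354 by DESeq2 and 0.0284 in 1 fit of 12 libraries, and the FDR was 0.0824 to 0.17 in the fits that left out 1 library. AFP, the fetal albumin, had a log2 fold change of -0.26 (FDR 0.226) with overlapping groups.

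Of 28 complement genes 25 were tested, 12 were lower and 4 higher (19.9% and 21.7% over all genes), with a median of -0.49. Recognition and early proteases of the lectin arm were among the falls. MBL2, the mannose-binding lectin, had 1.75, 1.87 and 5.64 CPM in LG and 0.761, 1.39 and 0.904 CPM in LGV (log2 fold change -1.62, FDR 0.00637). MASP2, its protease, had 14.9, 8.62 and 19.5 CPM in LG and 6.23, 4.29 and 4.65 CPM in LGV (log2 fold change -1.50, FDR 3.00e-04), and it overlaps TARDBP on the other strand. C3, the hub of the cascade, had 5599, 5870 and 5280 CPM in LG and 3377, 4657 and 3505 CPM in LGV (log2 fold change -0.54, FDR 0.0121), and its FDR was 0.0556 without LG replicate 1 and 0.0765 without LGV replicate 3. The members that rose were the serine proteases CFD and C1R, by 1.42 and 1.24, and the inhibitors SERPING1 and CD55, by 0.77 and 0.39. C4A and C4B, near-identical copies, were both called lower, and C1R shares exons with C1RL. Without LGV replicate 3, 7 complement genes were lower.

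Of 28 clotting and fibrinolysis genes 27 were tested, 11 were lower and 3 higher (19.9% and 21.7% over all genes), with a median of -0.31. The 3 chains of fibrinogen fell together. FGA had 2784, 2593 and 3813 CPM in LG and 1250, 1557 and 1302 CPM in LGV (log2 fold change -1.16, FDR 5.79e-05). FGG and FGB fell by 0.88 and 0.68, and F2, prothrombin, fell by 0.60. F7, factor VII, had 44.8, 25.4 and 41.7 CPM in LG and 13.9, 11.8 and 9.84 CPM in LGV (log2 fold change -1.65, FDR 1.33e-05), and PROC, the anticoagulant protein C, fell by 1.14. KLKB1, prekallikrein, rose by 1.60 from 0.644, 0.696 and 0.87 CPM to 2.52, 2.3 and 1.94 CPM. The other rises were those of GGCX and VKORC1, enzymes of the vitamin K cycle that activates several clotting factors, and with LGV replicate 2 or LGV replicate 3 left out 1 of the 3 rises passed.

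Of the 22 hepatocyte transcription factors, all tested, 9 were lower and 3 higher (19.9% and 21.7% over all genes), with a median of -0.30. HNF4A, the nuclear receptor at the centre of the hepatocyte network, had 438, 353 and 407 CPM in LG and 254, 245 and 221 CPM in LGV (log2 fold change -0.73, standard error 0.126, FDR 2.99e-04). NR1H4, the bile acid receptor FXR, had 85.6, 89.3 and 88.2 CPM in LG and 33.5, 38.4 and 33.7 CPM in LGV (log2 fold change -1.32, FDR 6.30e-07). CEBPD and CEBPA, factors of the acute phase and of liver maturity, fell by 1.63 and 1.26, and NR0B2, the FXR-induced repressor SHP, by 0.91. The rises were GATA6, ONECUT2 and CREB3L3, with log2 fold changes of 0.74, 0.51 and 0.49. Of 30 cytochrome P450 and UGT genes 21 were tested, 9 were lower and 4 higher (19.9% and 21.7% over all genes). CYP7A1 and CYP8B1, enzymes of bile acid synthesis that FXR and SHP are known to repress, fell by 1.65 and 2.22, CYP8B1 from 4.72, 2.64 and 3.8 CPM to 0.644, 0.82 and 0.904 CPM. The 4 rises were CYP2B6 (2.78), CYP2S1 (1.92), CYP2E1 (1.65) and CYP1A1 (0.75). CYP2B6 and CYP2E1 had at most 7 and 9 reads in an LG library and passed the filter only through LGV, so that among 19 members with a mean of 10 reads in LG 2 were higher. CYP2S1 had 7.23, 4.44 and 5.96 CPM in LG and 22.5, 22 and 21.7 CPM in LGV.

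**Figure D4:**
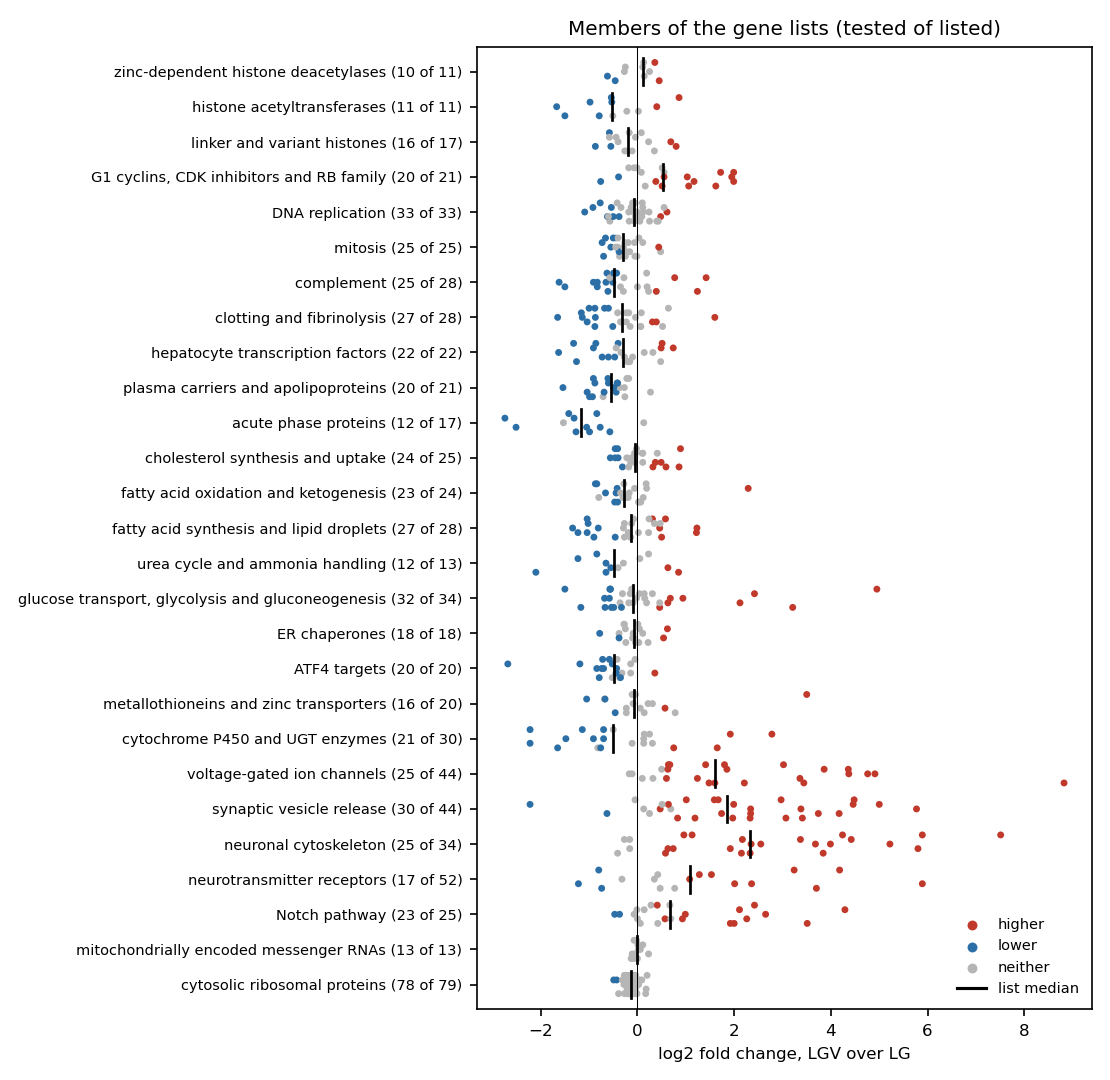
Log2 fold change (LGV over LG) of the tested members of 27 gene lists, with red for higher, blue for lower, grey for neither and a black line at the list median. The number tested and listed stands beside each name. The medians run from -1.16 for acute phase proteins to 2.33 for the neuronal cytoskeleton.

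In lipid metabolism members moved in both directions. Of 28 genes of fatty acid synthesis and lipid droplets 27 were tested, 6 rose and 8 fell, and the median of -0.14 turned to 0.02 with library size alone. The rises are at the share of all genes (21.7%), and falls over all genes were 19.9%. SREBF1, the factor that switches on lipogenesis, had 74.2, 65.1 and 65.9 CPM in LG and 24.3, 28.6 and 34.7 CPM in LGV (log2 fold change -1.23, FDR 7.30e-06). GPAM, the first enzyme of triglyceride synthesis, fell by 1.34, from 283, 254 and 249 CPM to 120, 86.8 and 104 CPM. The elongases ELOVL6 and ELOVL5 rose by 1.23 and 1.22, ELOVL5 from 94.5, 117 and 97.9 CPM to 222, 263 and 235 CPM. Of 24 genes of fatty acid oxidation and ketogenesis 23 were tested, and 7 were lower (19.9% over all genes). The 1 that rose was PDK4, the kinase that closes pyruvate dehydrogenase (log2 fold change 2.29, at 0.124 to 0.216 CPM in LG), which had at most 9 reads in an LG library and passed the filter only through LGV. Among 22 members with a mean of 10 reads in LG, 0 were higher by edgeR. ECI1, a mitochondrial isomerase, fell by 0.84. CPT1A, the gate of mitochondrial import, had a log2 fold change of 0.04 (FDR 0.814). Without LGV replicate 3, 4 of these genes were lower, and with library size alone 2 were lower and 3 higher.

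Of 25 cholesterol genes 24 were tested, and 6 rose and 6 fell, near the shares of all genes (21.7% and 19.9%). The median of -0.05 turned to 0.11 with library size alone. MSMO1 and SC5D, late enzymes of the pathway, rose by 0.89 and 0.86, MSMO1 from 30.5, 29.2 and 42 CPM to 64.7, 69.5 and 55 CPM. These counts depended on single libraries: 3 were higher without LG replicate 2, LGV replicate 2 or LGV replicate 3, and 2 were lower without LG replicate 1 and 3 without LGV replicate 1 or LGV replicate 3.

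Of 13 genes of the urea cycle and ammonia handling 12 were tested, with a median of -0.48. Of these, 6 were lower and 2 higher (19.9% and 21.7% over all genes). GLUL, which binds ammonia into glutamine, had 920, 1030 and 812 CPM in LG and 356, 433 and 386 CPM in LGV (log2 fold change -1.23, FDR 5.86e-06). NAGS, the enzyme whose product activates CPS1, fell by 0.84, from 18.6, 13.3 and 20.4 CPM to 9.98, 10.2 and 9.12 CPM. CPS1, the entry enzyme of the cycle, had 43.1, 36.4 and 45.9 CPM in LG and 51.3, 50.2 and 45.1 CPM in LGV, and its groups overlapped (log2 fold change 0.23, FDR 0.161). GLUD1, glutamate dehydrogenase, fell by 0.65.

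Of 34 genes of glucose transport, glycolysis and gluconeogenesis 32 were tested, and 8 rose and 11 fell (21.7% and 19.9% over all genes). The rises are near the share of all genes. The median of -0.10 turned to 0.05 with library size alone. The kinase HK1 and the transporter SLC2A3, both typical of brain, were among the rises. SLC2A3 had 13.9, 13.1 and 48.1 CPM in LG and 96.1, 129 and 102 CPM in LGV (log2 fold change 2.12, FDR 3.20e-04), with LG replicate 3 above the other LG libraries. TXNIP and ARRDC4, arrestin-like inhibitors of glucose uptake, rose by 0.63 and 2.42, TXNIP from 6.3, 5.98 and 6.14 CPM to 8.72, 10.4 and 9.38 CPM. The call of TXNIP was lost in 1 fit of 12 libraries, and in high glucose TXNIP had a log2 fold change of 0.44 (FDR 0.277). PCK2, a mitochondrial enzyme of gluconeogenesis, fell by 1.50 from 474, 269 and 599 CPM to 208, 123 and 143 CPM, and PKLR, the liver pyruvate kinase, by 1.17. Without LGV replicate 3, or with library size alone, 7 genes of the list were lower.

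Targets of the stress factor ATF4 were mostly lower. Of 20 ATF4 target genes, all tested, 12 were lower (19.9% over all genes) and 1 higher (ATF3, log2 fold change 0.36), with a median of -0.48. NUPR1, a stress-induced chromatin protein, had 47.6, 38.5 and 39.2 CPM in LG and 7.28, 6.82 and 5.5 CPM in LGV (log2 fold change -2.68, FDR 2.29e-08), and its exons overlap a gene without a symbol on the same strand. SHMT2 and MTHFD2, of mitochondrial one-carbon metabolism, fell by 1.19 and 0.84, and DDIT4, an inhibitor of mTOR signalling, by 0.79. Of 18 chaperone genes of the endoplasmic reticulum 2 were higher, 2 lower and 14 neither, under the shares of all genes (21.7% and 19.9%). The falls became 5 without LG replicate 3 and 1 without LG replicate 1, LGV replicate 1 or LGV replicate 3, and with library size alone 4 were higher and 1 lower. HSPA5, the chaperone BiP, had 5607, 5308 and 4133 CPM in LG and 4412, 5302 and 5810 CPM in LGV, with overlapping groups (log2 fold change 0.04, FDR 0.848). DNAJB11 and SEL1L rose by 0.62 and 0.54, and XBP1 fell by 0.78. Of 20 metallothionein and zinc transporter genes 16 were tested, and 2 were higher and 3 lower (21.7% and 19.9% over all genes). Without LG replicate 3 or with library size alone 4 were higher. Among the calls were SLC30A3 (3.50), SLC30A10 (-1.05), SLC39A14 (-0.67) and MTF1 (0.57), while MT2A had a log2 fold change of 0.14 (FDR 0.495).

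Genes typical of neurons rose from low levels. In this liver line many of them are close to silent, and the filter removed 19 of 44 voltage-gated ion channels, 14 of 44 synaptic vesicle genes, 9 of 34 neuronal cytoskeleton genes and 35 of 52 neurotransmitter receptors. A member low in LG could pass through its level in LGV, so each count is also given for members with a mean of 10 reads in LG alone. Among all genes tested 21.7% were higher, but this share depended on level. For protein-coding genes it was 60.9% in the lowest of the 5 groups by level in LG and 33.1% in the second. Among all genes with a mean of 10 reads in LG, grouped anew, 22.2% of the lowest and 24.9% of the second group were higher. The part of level in the counts of these lists was not tested. Of 25 cytoskeleton genes tested, 21 were higher, and of the 20 with a mean of 10 reads in LG, 16. Of cytoskeleton and ion channel genes, edgeR and DESeq2 called 0 lower, and 0 were lower at an unadjusted p under 0.05. For the cytoskeleton list the median log2 fold change was 2.33 and 2.03 in these sets, and the first was the same with the 2 members near absent in LG set to their floor. KIF5C, a kinesin of axons, had 0.787, 0.504 and 0.646 CPM in LG and 25.6, 21.7 and 24.1 CPM in LGV (log2 fold change 5.22, FDR 1.71e-09). MAPT, tau, had 11.6, 10.4 and 10.2 CPM in LG and 48.1, 59.8 and 53.5 CPM in LGV. TUBB3, the neuronal tubulin, had a log2 fold change of -0.27 (FDR 0.391), and the neurofilament genes NEFL, NEFM and NEFH did not pass the filter.

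Of 30 synaptic vesicle genes tested 23 were higher and 2 lower (21.7% and 19.9% over all genes). Of 26 with a mean of 10 reads in LG, 19 were higher and 2 lower. NXPH3, a ligand of neurexins, had 0.501, 0.984 and 0.596 CPM in LG and 20.9, 24.6 and 23.1 CPM in LGV (FDR 4.06e-09). SYNGR1, a synaptic vesicle membrane protein, had 1.14, 0.6 and 0.745 CPM in LG and 18.9, 17.7 and 16.8 CPM in LGV, and DNM1, the dynamin that pinches off vesicles, rose by 4.48. The exceptions were CPLX2 and BSN. CPLX2, a complexin that clamps vesicle fusion, had 62.8, 50.9 and 122 CPM in LG and 22.6, 12.7 and 15.2 CPM in LGV (log2 fold change -2.22, FDR 1.92e-05).

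Of 25 ion channel genes tested 20 were higher (21.7% over all genes), and of 17 with a mean of 10 reads in LG, 12 were higher. The first set had a median log2 fold change of 1.60 and the second of 0.67. KCNH2, the potassium channel hERG of the heart, had 0.751, 0.888 and 0.397 CPM in LG and 11.4, 15.6 and 14.7 CPM in LGV (log2 fold change 4.36, FDR 3.51e-08). CACNB3, a calcium channel subunit, had 0.286, 0.216 and 0.0994 CPM in LG and 5.68, 4.89 and 5.45 CPM in LGV. Of 17 receptors tested 9 were higher and 3 lower (SSTR5, CHRNB1 and ADRA2C), and of 14 with a mean of 10 reads in LG, 6 and 3. The share of rises among the 17 lies between the 33.1% and 60.9% of protein-coding genes higher in the second and lowest groups by level in LG. For the 14, the matching shares are those of all genes with a mean of 10 reads in LG. These were 22.2% in the lowest and 24.9% in the second group, not limited to protein-coding genes. Within the somatostatin receptors the directions split. SSTR2 rose by 3.70, from 0.787, 1.73 and 0.845 CPM to 12.3, 16.2 and 16 CPM, and SSTR1 by 4.18, while SSTR5 fell by 1.22, from 26.5, 14.3 and 19.8 CPM to 9.6, 8.65 and 7.77 CPM.

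The Notch pathway, a route of signalling between neighbouring cells in which DLL and JAG ligands bind NOTCH receptors, had 12 genes higher and 2 lower of 23 tested and 25 listed, with a median of 0.67. Of 21 with a mean of 10 reads in LG, 10 were higher and 2 lower (21.7% and 19.9% over all genes tested). Among receptors, NOTCH3 had 0.68, 0.432 and 0.969 CPM in LG and 14.8, 13.3 and 12.6 CPM in LGV (log2 fold change 4.29, FDR 3.04e-08). Among ligands, JAG2 rose by 3.51 and DLL4 by 2.26, JAG2 from 0.572, 0.624 and 0.348 CPM to 6.14, 5.65 and 5.81 CPM. The coactivator MAML3 rose by 2.42, and the falls were MAML1 (-0.47) and RFNG (-0.37). The target genes HEY2, HEYL, NRARP and HEY1 rose by 2.65, 2.11, 2.00 and 0.57, while HES1 had a log2 fold change of -0.01 and did not pass.

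Few genes of ribosomes and none of mitochondrial DNA were called, while over all genes 21.7% were higher and 19.9% lower. Of 13 mitochondrially encoded messenger RNAs, all tested, 0 were called in either direction by edgeR or DESeq2 and 0 had an unadjusted p under 0.05 (1 was called higher without LGV replicate 3), with log2 fold changes from -0.13 to 0.23. Of 79 cytosolic ribosomal protein genes 78 were tested, 2 were lower and 0 higher, with a median of -0.13 that turned to 0.03 with library size alone. The count of falls was 4 without LG replicate 3, 0 without LGV replicate 3 and 1 without LG replicate 1, LG replicate 2 or LGV replicate 2. The 2 were RPL9 (log2 fold change -0.49, FDR 0.00585, and 0.0501 without LGV replicate 3) and RPL21 (-0.43, FDR 0.0477, and 0.197 without LGV replicate 3).

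The response in low glucose was set beside that in high glucose, where 7456 of 16188 genes were called between HGV and HG (46.1%). Of 6594 genes called in low glucose and tested in both, 97.3% had a log2 fold change of the same sign in high glucose and 77.1% were called there in the same direction. KIF21B had a log2 fold change of 4.24 in low and 4.38 in high glucose, KIF5C 5.22 and 5.19, NOTCH3 4.29 and 4.29, KAT6B -1.67 and -1.97, and HNF4A -0.73 and -0.46. Other named genes had values further apart, such as PCK2 with -1.50 and -0.51, DDIT4 with -0.79 and -0.02, CPT1A with 0.04 and -0.73 and KCNH2 with 4.36 and 5.67, but their interactions did not pass the test. The difference between the responses was tested as the interaction of VPA and glucose over the 12 libraries. It was past an FDR of 0.05 for 7 of 16389 genes (0.0427%), and 1852 genes (11.3%) had an unadjusted p under 0.05. With 3 libraries per group, a gene that did not pass is not shown to respond alike at both glucose levels.

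Of these, RNF125 moved in opposite directions. RNF125, a ubiquitin ligase that limits antiviral signalling, lies on chromosome 18 of GRCh37 from 29598788 to 29653182. With the TMM factors of the 12 libraries, RNF125 had 0.86, 1.25 and 1.2 CPM in LG and 3.27, 3.67 and 3.55 CPM in LGV, but 3.42, 6.61 and 5.29 CPM in HG and 2.45, 2.4 and 1.94 CPM in HGV. VPA therefore raised it in low glucose (log2 fold change 1.66, FDR 8.17e-05) and lowered it in high glucose (-1.17, FDR 0.00141). The interaction was 2.82 (standard error 0.343, edgeR FDR 0.0012), and it stayed past the threshold in all 12 fits that left out 1 library. WFS1, a membrane protein of the endoplasmic reticulum, had 198, 169 and 147 CPM in LG and 114, 116 and 130 CPM in LGV, against 65, 78.1 and 73.9 CPM in HG and 104, 102 and 99.5 CPM in HGV. Its level went down in low glucose and up in high glucose. TTBK1, a tau kinase, had 0.449, 0.324 and 0.357 CPM in LG and 1.59, 2.11 and 1.57 CPM in LGV, while HG and HGV overlapped at 1.84 to 3.02 CPM. Exons of RNF125 overlap a gene without a symbol on the same strand. For these and the other 4 genes, C2orf81, SH2D5, CDK2AP2 and ANKRD65, LG and HG did not overlap before VPA. The responses therefore began at different levels. But the LG and HG values are part of the interaction by which these genes were chosen. The share of all genes whose LG and HG libraries do not overlap was not computed. Each of the 6 genes besides RNF125 passed in 3 of the 12 fits that left out 1 library.

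**Figure D5:**
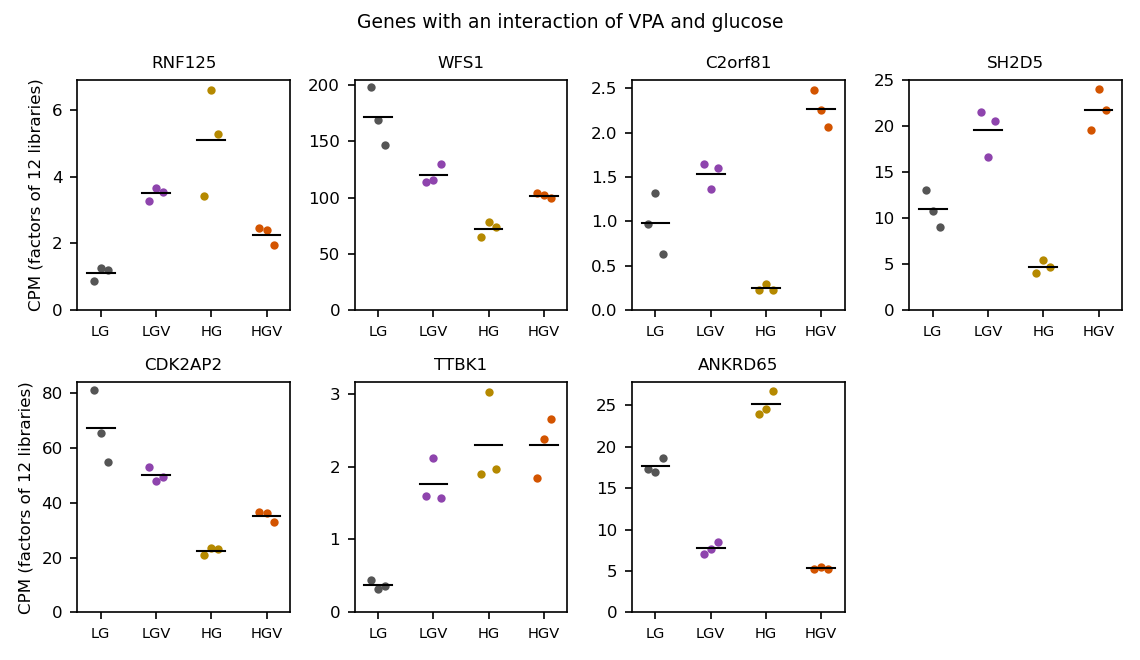
CPM (TMM factors of the 12 libraries) of the 7 genes with an interaction of VPA and glucose, as points for each library of LG, LGV, HG and HGV and a line at the mean of 3. RNF125 goes up from LG to LGV (0.86 to 1.25 CPM against 3.27 to 3.67 CPM) and down from HG to HGV (3.42 to 6.61 CPM against 1.94 to 2.45 CPM).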

How the data were processed

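RNA of HepG2 cells was selected for poly(A), made into directional libraries and sequenced. Per the labels and the study's methods, the authors trimmed the reads, aligned them with STAR to GRCh37, counted reads per Ensembl gene with featureCounts and kept genes whose mean over samples was at least 10 reads. The demultiplexer bcl2fastq 2.17.1.14 is named in the submitters' processing notes. The deposited values are these raw counts, not normalized, for 16389 genes. Groups came from the sample labels.

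Counts of LG and LGV (genes with a mean of at least 10) went into edgeR 4.0.16, run in R 4.3.3 (TMM factors, quasi-likelihood F test, Benjamini-Hochberg FDR of 0.05 or less). The interaction used 12 libraries, with 1 coefficient per group. A standard error is the log2 fold change over the square root of F. For genes with at most 3 reads in each LG library, the fold is the mean LGV CPM over the highest 3-read level of an LG library. The fits were tested on simulated data in which few genes changed, equally in both directions. That setting does not test the choice of scaling factors where many genes change. Positions and overlaps came from GENCODE v44 on GRCh37, where 97.47% of the gene identifiers were found, and promoters from RefSeq (GRCh38.p14). Tables and plots used Python 3.11.15, pandas 2.3.3 and matplotlib 3.10.9.

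Genes named are the 12 largest rises and falls called (mean of at least 1 log2 CPM, groups that do not overlap, over 3 reads in the lower group), the 6 highest of the genes near absent in LG, up to 4 called genes per list with the largest change and a mean of at least 1 CPM, a set of genes fixed by name, the interaction genes and the smallest p in each direction. Other members, such as those that went against their list, were named after their values were seen. The members and lists were chosen with earlier results of these data known. Clone-named genes were counted, not named, and some genes that the rule names are not reported here.

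The alternatives were RLE, upper quartile or no scaling factors, the likelihood ratio test, DESeq2 1.42.0, no filter or 1 CPM in at least 3 libraries, replicate number as a block, 1 fit of 12 libraries, an FDR of 0.01 and leaving out each library. Counts by the level in LG alone were added after seeing the data.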

Additional observations from a re-analysis of the deposited data

Results flagged for a closer look

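The response to VPA differed between low and high glucose for 7 genes by the test of the interaction itself (edgeR, FDR of 0.05 or less), given as the log2 fold change in low glucose minus that in high glucose. It was 2.82 for RNF125 (FDR 0.0012), 2.23 for TTBK1 (FDR 0.0383) and 1.06 for ANKRD65 (FDR 0.0452). It was -1.01 for WFS1, -2.52 for C2orf81, -1.37 for SH2D5 and -1.07 for CDK2AP2 (FDR 0.0374 for each of the 4).

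ANKRD65 went down under both glucose levels, by log2 fold changes of -1.17 in low and -2.24 in high glucose, and SH2D5 went up under both, by 0.86 and 2.21. C2orf81, whose exons overlap those of other genes on both strands, had 0.66 in low glucose (FDR 0.0976) and 3.17 in high glucose (FDR 1.96e-06). CDK2AP2 had -0.41 in low glucose (FDR 0.0263, and 0.138 without LG replicate 1) and 0.65 in high glucose (FDR 3.91e-04). In the fits that each left out 1 of the 12 libraries, RNF125 had an FDR of at most 0.0145, while the other 6 genes reached 0.159 to 0.186 and passed in 3 of the 12 fits. Exons of RNF125 overlap a gene on the same strand, and those of WFS1 and ANKRD65 overlap genes on the other strand. Groups of 3 libraries were too small for a test of single outlying libraries.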

How the results depend on the processing

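The count of 6638 genes called between LGV and LG stayed within 1.5 times under each alternative, from 4607 at an FDR of 0.01 to 7090 in 1 fit of 12 libraries. DESeq2 called 6603 genes, of which 6433 were among the 6638, and no filter gave 6756. Leaving out each library gave 4942 genes (without LGV replicate 3) to 6986 (without LG replicate 2). The 3177 genes called lower became 1956 with library size alone and 2074 at an FDR of 0.01, and leaving out each library gave 2186 to 3395, with 2186 without LGV replicate 3. The 3461 called higher were 4500 with library size alone. The stricter FDR calls fewer genes by construction, and the cause of the other shifts was not tested.

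LG and LGV libraries that share a replicate number had deviations from their group means that correlated by 0.04, 0.48 and -0.25 over genes, so the numbers were not taken as pairs. With the replicate block 6971 genes were called, and not every library correlated best with its own number. With the block CDKN1A (0.58, FDR 0.00898) and ALB (-0.37, FDR 0.0336) were called, as were both immune markers, LYZ and CD14.

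The interaction count of 7 genes was sensitive to the test and to single libraries: 202 with the likelihood ratio test, 162 with DESeq2, 13 with the replicate block, 1 with library size alone and 1 at an FDR of 0.01. Leaving out each library gave 1 to 217 genes, with 217 without LG replicate 2, 67 without LG replicate 3 and 22 without LGV replicate 1. The cause was not tested.

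Counts of 1 or 2 in a list also moved with single libraries. The 2 acetyltransferases called higher became 1 without LG replicate 1 or LGV replicate 3, and the 2 G1 genes called lower became 1 without LG replicate 2, LG replicate 3, LGV replicate 2 or LGV replicate 3. The 2 synaptic genes called lower became 1 without LG replicate 1, LG replicate 3 or LGV replicate 3, the 2 Notch genes 1 without LG replicate 1, LGV replicate 1 or LGV replicate 3, and the 1 ATF4 target called higher 0 without LG replicate 1, LG replicate 3 or LGV replicate 2.

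Of 153 named genes 140 were called, 127 of these passed under each alternative run for them, 13 lost the call under at least 1, and 0 reversed. The depth, with 3 reads at 0.072 CPM or more in LG, limits statements on genes near that level.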

Other observations

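Gene groups that were chosen after their values were seen are given as values, with no test of the groups. Of 37 genes of epithelial junctions 33 were tested, and 12 were higher and 8 lower in LGV (21.7% and 19.9% over all genes). The falls are near the share of all genes, and the median log2 fold change was 0.08. CDH1, E-cadherin of the adherens junction, had 10.1, 8.95 and 9.99 CPM in LG and 54, 55.3 and 54.2 CPM in LGV (log2 fold change 2.49, edgeR FDR 7.73e-09). CGN, cingulin of the tight junction, went from 3.86, 3.26 and 3.73 CPM to 27.9, 34.6 and 33.1 CPM. The claudins, which seal tight junctions, split: CLDN3, CLDN4, CLDN6 and CLDN9 rose by 1.59, 1.77, 1.27 and 1.29, while CLDN14 and CLDN2 fell by 2.65 and 1.69. The connexins of gap junctions split as well, with GJB2 higher by 4.91 and the liver connexin GJB1 lower by 0.79 on the log2 scale.

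Of 62 ephrins, ephrin receptors, netrin receptors, semaphorins and plexins, genes of cell and axon guidance, 43 were tested. Of these, 19 were higher and 7 lower (21.7% and 19.9% over all genes). EPHB3 had 0.25, 0.12 and 0.149 CPM in LG and 5.68, 5.93 and 6.25 CPM in LGV (log2 fold change 5.14, edgeR FDR 2.56e-08), and EPHB2 rose by 5.35. EPHB4, of the same family, fell by 0.61. EPHB6 had 0 reads in the 3 LG libraries and 1.2, 0.631 and 1.08 CPM in LGV. The ligands EFNB3, EFNA3 and EFNB2 rose by 3.99, 3.10 and 2.05, and EFNA1 fell by 1.10. Among 39 with a mean of 10 reads in LG, 15 were higher and 7 lower.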
